A study of Homo sapiens with 24 samples.

Results

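The genes described here were the 7 cyclin-dependent kinase (CDK) inhibitors CDKN1A, CDKN1B, CDKN1C, CDKN2A, CDKN2B, CDKN2C and CDKN2D, with MTAP, the neighbour of CDKN2A and CDKN2B in band p21 of chromosome 9 (9p21), and the stress genes GADD45A and GADD45B. These 10 genes were chosen by name, with earlier results of these data known. They are the rows of the count table whose Ensembl identifiers carry these symbols, out of 60675 identifiers in all. RNA was sequenced from MIA PaCa-2, a cell line from a human pancreatic carcinoma, in 24 libraries of 8 groups with 3 replicate wells each. CTRL cells carried the doxycycline-responsive Tet-On vector pCW57 without an insert together with an mCherry vector, and C/EBPδ-inducible cells carried the same vector with the CEBPD cDNA together with an mVenus vector. Each line was sampled after 0, 8, 24 and 48 h with 2 µg/mL doxycycline, and the study used CTRL cells on doxycycline as the reference for the effects of the drug itself. The sample labels list the dose at 0 h as well, whereas the study's methods describe cells without doxycycline, and the 0 h wells were taken as untreated. The C/EBPδ-inducible cells were a pool of 3 clones, so that a difference between the lines also holds what set these clones apart before doxycycline, and within a line the hours of doxycycline and the hours in culture cannot be told apart. The replicates were wells seeded in parallel, and p values here measure the spread between wells.

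CDK inhibitors hold back the kinases that drive cells from one phase of the cycle to the next. The Cip/Kip proteins p21 (CDKN1A), p27 (CDKN1B) and p57 (CDKN1C) bind complexes of cyclin with CDK, whereas the INK4 proteins p16 (CDKN2A), p15 (CDKN2B), p18 (CDKN2C) and p19 (CDKN2D) bind CDK4 and CDK6 and keep D-type cyclins from activating them. GADD45A and GADD45B encode small proteins made under stress that act on stress kinases and on the cell cycle. C/EBPδ belongs to the basic leucine zipper transcription factors. The study's authors earlier found that its induction limited proliferation of pancreatic carcinoma cells. They describe its role in cancer as dependent on context and cite urothelial carcinoma cells, where its knockdown limited proliferation. Pancreatic carcinomas often lose CDKN2A, in many cases together with MTAP, an enzyme of methionine salvage. MIA PaCa-2 is known as a line that lacks CDKN2A and MTAP.

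Because the construct encodes a transcription factor, the sequence before the start of 3 members whose changes from 0 h differed between the lines is shown. RefSeq promoter windows on GRCh38.p14, which run from 250 bases before to 50 bases after a start, were found for 8 of the 10 members, and the 250 bases before the start are printed 5′ to 3′ on the plus strand of the chromosome, which is the coding strand of all 3. Capitals mark matches to the searched motifs, which were CCAAT, the GC box with the letters GGGCGG, the core of a C/EBP site with the letters TTGCNNAA, a composite of C/EBP and ATF sites with the letters TGATGNAA, and the TATA box with the letters TATAAA, each searched on both strands. The CDKN1A window lies at chr6:36678464-36678713, that of the first of 3 RefSeq starts of CDKN2C at chr1:50960495-50960744, and that of GADD45B at chr19:2475877-2476126.
CDKN1A: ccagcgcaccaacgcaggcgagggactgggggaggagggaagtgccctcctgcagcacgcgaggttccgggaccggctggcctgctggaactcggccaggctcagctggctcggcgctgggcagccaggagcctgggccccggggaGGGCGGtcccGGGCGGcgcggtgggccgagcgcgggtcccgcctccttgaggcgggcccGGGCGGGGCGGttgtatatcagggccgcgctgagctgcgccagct
CDKN2C: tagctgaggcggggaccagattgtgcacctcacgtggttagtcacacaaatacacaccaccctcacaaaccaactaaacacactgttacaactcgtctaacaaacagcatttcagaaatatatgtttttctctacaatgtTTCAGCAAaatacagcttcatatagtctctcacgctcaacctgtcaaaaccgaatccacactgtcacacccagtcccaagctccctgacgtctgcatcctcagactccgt
GADD45B: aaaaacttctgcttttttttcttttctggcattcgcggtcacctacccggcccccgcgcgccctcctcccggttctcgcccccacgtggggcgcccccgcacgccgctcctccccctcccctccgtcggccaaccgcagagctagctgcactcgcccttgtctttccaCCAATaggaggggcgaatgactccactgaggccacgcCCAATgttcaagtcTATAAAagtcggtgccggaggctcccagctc

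The CDKN1A window held 4 GC boxes, at positions -104, -94, -45 and -40 from the start, of which the last ones overlap, and no match to the other motifs. The first CDKN2C window held the C/EBP core on the reverse strand at -110 and no match to the other motifs. The window of the last of its starts held a core on the forward strand at -81, with CCAAT at -95 and a GC box at -54. The middle window held GC boxes and no other match. GADD45B had CCAAT at -82 and -45 and the TATA box at -31, and its C/EBP core lay at 31, beyond the printed bases. Of all 35116 RefSeq windows of this length, 10.5% held the C/EBP core, 45.0% the GC box, 34.6% CCAAT, 11.5% the TATA box and 3.62% the composite. These matches describe the letters and are no measure of binding.

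The libraries held 12731237 to 22598595 counts (median 18959363.5). The fewest were in C/EBPδ-inducible well 3 at 8 h. By chi-square per gene it differed from wells 1 and 2 of its group by 10.98 and 11.11, and these from each other by 2.22. CTRL wells 1 and 3 at 8 h differed by 14.9. No call of a member at 8 h changed without C/EBPδ-inducible well 3. The construct gene CEBPD was at 18.9 to 23.3 CPM (counts relative to the library total, adjusted by the TMM method) in C/EBPδ-inducible cells at 0 h, above the 3.72 to 4.20 CPM of CTRL cells, and at 199 to 320 CPM from 8 to 48 h, while CTRL cells stayed between 1.33 and 4.42 CPM. The counts do not separate the construct from the endogenous gene. The study attributes the raised CEBPD mRNA without doxycycline to probable leakiness of the Tet-On construct. The 0 h wells of C/EBPδ-inducible cells were thus not at the CEBPD level of CTRL cells. The part of this in the differences between the lines at 0 h was not tested. Of the markers, KRT8 differed most plainly between the lines, with 1004 to 1598 CPM in CTRL and 34.4 to 76.0 CPM in C/EBPδ-inducible cells. KRT18 and KRT19 were also lower in the latter in every library. EPCAM, CDH1 and KRT7 were low, with ranges that overlapped between the lines. Their highest values were 1.82, 1.94 and 3.57 CPM in CTRL and 2.29, 6.06 and 5.48 CPM in C/EBPδ-inducible cells. VIM, a mesenchymal marker, was at 6622 to 7024 CPM in CTRL and 5372 to 6242 CPM in C/EBPδ-inducible cells. COL1A2, a fibroblast marker, was at 448 to 684 CPM in CTRL and 134 to 251 CPM in C/EBPδ-inducible cells. The fibroblast marker PDGFRB went the other way at a low level, with at most 0.0924 CPM in CTRL and 0.461 to 1.57 CPM in C/EBPδ-inducible cells. COL1A1 reached at most 1.89 CPM, and its ranges overlapped. PRSS1, INS and GCG had no count, and CPA1, PTPRC and PECAM1 had at most 6 counts in a library. The part of these differences between the lines in the results below was not tested, and in bulk RNA a lower share of expressing cells and less RNA per cell cannot be told apart. The CTRL wells numbered 3 at 8 h and at 48 h stood apart by counts of MMP7 (23 and 29, at most 3 in the other 22 libraries) and GALNT5 (56 and 71, at most 11 elsewhere), and both stay in the values below. Without these wells the calls at 8 and 48 h between the lines, within CTRL cells and in the interactions were kept, except that CDKN1C and GADD45A lost theirs in CTRL cells at 48 h and CDKN2C gained the interaction at 8 h.

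Expression was tested with the quasi-likelihood method of edgeR, and a gene was called at an adjusted p (false discovery rate, FDR) under 0.01 over all genes tested. The 7 members CDKN1A, CDKN1B, CDKN1C, CDKN2C, CDKN2D, GADD45A and GADD45B passed the filter on low counts in every comparison, except CDKN1C in CTRL cells at 8 h. CDKN2A and CDKN2B never passed it, and MTAP passed it only in the interactions at 8 and 48 h.

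Between the lines at 0 h, 6 members were called, where 43.9% of all genes tested were called. C/EBPδ-inducible cells had more CDKN1A, CDKN1C, GADD45A and GADD45B and less CDKN1B and CDKN2C than CTRL cells. At 8 h the calls were 4 against a background of 31.8%, at 24 h 6 against 46.9%, and at 48 h 4 against 38.3%. CDKN1A, GADD45A and GADD45B were higher and CDKN2C was lower in C/EBPδ-inducible cells at all 4 time points.

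Within C/EBPδ-inducible cells, 4 members were called at 8 h against 0 h (background 30.5%), 4 at 24 h (15.5%) and 6 at 48 h (38.7%). CDKN1A rose and CDKN2C and GADD45B fell at each time, and GADD45A rose at 8 h and fell at 24 and 48 h. In CTRL cells, GADD45A was the only call at 8 h (background 1.70%) and at 24 h (6.06%), and 4 members were called at 48 h (30.0%). The interaction, which tests whether the change from 0 h differed between the lines, called GADD45B at 8 h (1 member, background 1.66%), and CDKN1A, CDKN2C and GADD45A at 24 h (3 members, 5.84%) and again at 48 h (3 members, 5.54%). With DESeq2 the calls of CDKN1B and CDKN1C at 0 h and of CDKN2D at 24 h between the lines were not made, nor those of GADD45B at 24 h and of CDKN1B and CDKN2D at 48 h within C/EBPδ-inducible cells and of CDKN1C and GADD45A at 48 h within CTRL cells. An analysis of variance gene by gene on log2(CPM + 1) did not call CDKN2D between the lines at 24 h and called CDKN1C there. The comparisons at 8, 24 and 48 h share the 0 h libraries of each line and are not independent of each other.

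**Figure D1:**
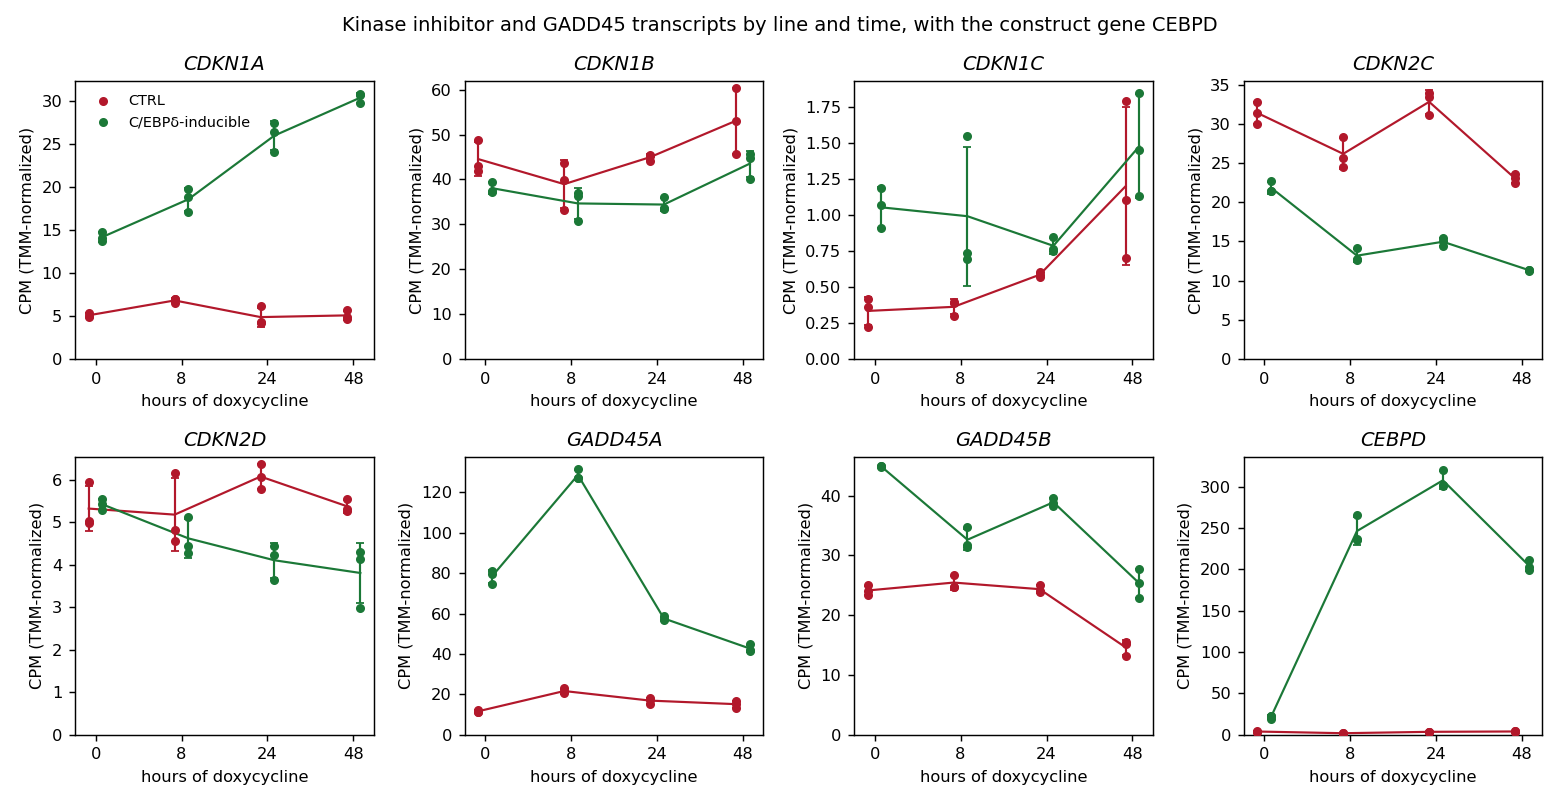
TMM-normalized CPM (vertical axes, each from 0) of 7 members and of the construct gene CEBPD by hours of doxycycline (horizontal axes, time points evenly spaced) in CTRL cells (red) and C/EBPδ-inducible cells (green). Points are libraries, lines join group means and bars are the SD of 3 libraries. CDKN1A climbed from a mean of 14.2 to 30.4 CPM in C/EBPδ-inducible cells, while GADD45A peaked at 8 h in both lines.

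CDKN1A encodes p21 and spans chromosome 6, 36676460 to 36687337, on the plus strand of GRCh38 (ENSG00000124762). In C/EBPδ-inducible cells its level was 13.7, 14.8 and 14.0 CPM in the 3 wells at 0 h, 18.9, 17.1 and 19.7 CPM at 8 h, 26.4, 24.1 and 27.4 CPM at 24 h, and 30.7, 30.6 and 29.7 CPM at 48 h. In CTRL cells it was 5.38, 4.92 and 4.96 CPM at 0 h, 7.00, 6.46 and 6.97 CPM at 8 h, 4.35, 6.14 and 4.13 CPM at 24 h, and 4.62, 4.93 and 5.68 CPM at 48 h. Every C/EBPδ-inducible library was above every CTRL library, and within C/EBPδ-inducible cells the wells of each time point were above all wells of the time point before. The CTRL wells were highest at 8 h and overlapped between 0, 24 and 48 h.

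The difference between the lines was 2.78-fold at 0 h (log2 fold change 1.48, SE 0.09, adjusted p = 1.1e-10 by edgeR) and 5.93-fold at 48 h (2.57, SE 0.09, adjusted p = 5.2e-11). Against 0 h, CDKN1A rose in C/EBPδ-inducible cells by a log2 fold change of 0.38 (SE 0.08) at 8 h, 0.87 (SE 0.07) at 24 h and 1.08 (SE 0.07) at 48 h, and each change was called. In CTRL cells the change was 0.45 (SE 0.11, adjusted p = 0.048 by edgeR) at 8 h, which did not pass the threshold, and -0.06 and 0.00 at 24 and 48 h. The early rise did not differ detectably between the lines (interaction -0.04 on the log2 scale, 95% interval -0.31 to 0.24). The later ones did, by 0.94 (SE 0.16, adjusted p = 1.9e-04) at 24 h and 1.07 (SE 0.13, adjusted p = 1.3e-05) at 48 h in edgeR. Without each library in turn, the interaction stayed between 0.82 and 1.15 at 24 h and between 1.01 and 1.16 at 48 h, and it was called each time. CDKN1A overlaps the long non-coding RNA gene DINOL on the other strand, and the strand setting of the counting was not stated in the sources used here, so that reads of both genes could not be told apart.

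CDKN1B encodes p27 and spans chromosome 12, 12685498 to 12722369 (ENSG00000111276). It moved within a narrow range, from group means of 39.0 (SD 5.30) to 53.1 CPM (SD 7.35) in CTRL and from 34.4 (SD 1.5) to 43.5 CPM (SD 2.90) in C/EBPδ-inducible cells. At 24 h the wells were at 45.4, 45.3 and 44.2 CPM in CTRL and 33.6, 33.5 and 36.1 CPM in C/EBPδ-inducible cells. The groups did not overlap there, and CDKN1B was lower in C/EBPδ-inducible cells by 0.38 on the log2 scale (SE 0.05, adjusted p = 3.2e-07 by edgeR). The difference at 0 h was smaller, at a log2 fold change of -0.23 (SE 0.06), and its call was lost without CTRL well 1 or without C/EBPδ-inducible well 1 or 3, where it ranged from -0.28 to -0.17 over the libraries left out. The values at 8 h (-0.15, SE 0.10) and 48 h (-0.29, SE 0.09) did not pass. In C/EBPδ-inducible cells CDKN1B was 0.17 higher on the log2 scale at 48 h than at 0 h (SE 0.05, adjusted p = 0.0085 by edgeR), a call lost without any of 4 of the 6 libraries (range 0.14 to 0.22), and no interaction was called.

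CDKN1C encodes p57 and spans chromosome 11, 2883213 to 2885775 (ENSG00000129757). It had 4 to 42 counts in a library, so that its values carry wide errors. At 0 h it was at 0.224, 0.360 and 0.417 CPM in CTRL and at 0.905, 1.18 and 1.07 CPM in C/EBPδ-inducible cells, without overlap. The line difference was called at 0 h (log2 fold change 1.63, SE 0.35, adjusted p = 6.0e-04 by edgeR). At 8 h it was 1.48 (SE 0.41, adjusted p = 0.012 by edgeR), which did not pass, though the wells did not overlap. Without the filter on low counts and in the model of all 24 libraries it was called at 8 h (adjusted p = 0.0023 by edgeR in each). The values at 24 h (0.43, SE 0.32) and 48 h (0.28, SE 0.32) did not pass in edgeR. In CTRL cells at 48 h the wells were spread over 1.79, 0.704 and 1.10 CPM, all above 0 h, and the rise of 1.84 (SE 0.43, adjusted p = 0.0040 by edgeR) lost its call without any of 5 of the 6 libraries, with values from 1.42 to 2.10. The change of CDKN1C within C/EBPδ-inducible cells did not pass at any time, and its interactions of -0.17 (SE 0.56), -1.20 (SE 0.47) and -1.37 (SE 0.51) did not pass either.

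**Figure D2:**
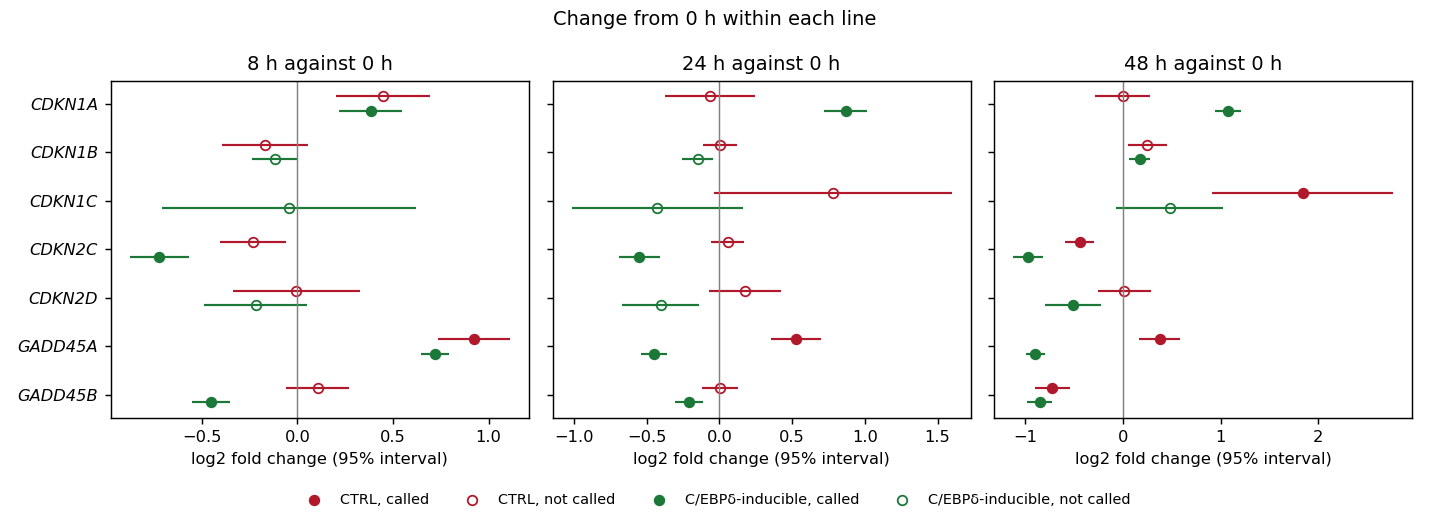
Log2 fold change from 0 h (horizontal axes) of 7 members (rows) at 8, 24 and 48 h in CTRL (red) and C/EBPδ-inducible cells (green), with 95% intervals from edgeR. Filled points passed the FDR of 0.01. At 24 h GADD45A was at 0.53 in CTRL and at -0.45 in C/EBPδ-inducible cells, and CDKN1A was at -0.06 in CTRL and at 0.87 in C/EBPδ-inducible cells.

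CDKN2C encodes p18, the INK4 protein with the highest transcript level here, and spans chromosome 1, 50960745 to 50974634, on the plus strand (ENSG00000123080). In C/EBPδ-inducible cells it was at 21.4, 22.7 and 21.4 CPM at 0 h, 12.7, 14.1 and 12.7 CPM at 8 h, 15.0, 14.4 and 15.5 CPM at 24 h, and 11.4, 11.3 and 11.3 CPM at 48 h. In CTRL cells it was at 30.02, 32.8 and 31.3 CPM at 0 h, 28.3, 25.6 and 24.5 CPM at 8 h, 31.1, 33.9 and 33.4 CPM at 24 h, and 23.6, 22.5 and 23.0 CPM at 48 h. C/EBPδ-inducible wells were below CTRL wells at each time, and all their wells on doxycycline were below their wells at 0 h.

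CDKN2C was lower in C/EBPδ-inducible than in CTRL cells by a log2 fold change of -0.52 (SE 0.06) at 0 h, -0.97 (SE 0.09) at 8 h, -1.13 (SE 0.06) at 24 h and -1.03 (SE 0.08) at 48 h, where the level was 0.488 of that in CTRL cells. It fell within C/EBPδ-inducible cells by 0.72, 0.55 and 0.97 on the log2 scale at 8, 24 and 48 h (SE 0.07 each). In CTRL cells the fall passed only at 48 h (-0.45, SE 0.07, adjusted p = 2.3e-04 by edgeR). At 8 h all CTRL wells were below those at 0 h, but the value of -0.23 (SE 0.08, adjusted p = 0.13 by edgeR) did not pass. It was called in the model of all 24 libraries (-0.26, adjusted p = 0.0042 by edgeR). The interaction was -0.46 at 8 h (SE 0.11, adjusted p = 0.018 by edgeR), which did not pass, -0.60 at 24 h (SE 0.08, adjusted p = 1.6e-05) and -0.53 at 48 h (SE 0.09, adjusted p = 8.9e-04). At 8 h it was called once CTRL well 3 was left out, and over all libraries left out it ranged from -0.51 to -0.39. With all wells kept, edgeR called it at 8 h without the filter on low counts (adjusted p = 0.0047). It was also called there in the model of all 24 libraries (adjusted p = 0.0023 by edgeR). CDKN2C overlaps the non-coding gene ENSG00000290102 on the other strand, with the same limit as for CDKN1A, and the counts do not say from which of its starts the transcripts came.

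CDKN2D encodes p19 and spans chromosome 19, 10566460 to 10569059 (ENSG00000129355). No difference between the lines was detectable at 0 h, with 4.99, 5.04 and 5.95 CPM in CTRL and 5.43, 5.28 and 5.55 CPM in C/EBPδ-inducible cells (log2 fold change 0.02, 95% interval -0.24 to 0.27). At 24 h CTRL wells were at 5.78, 6.38 and 6.08 CPM and C/EBPδ-inducible wells at 4.44, 4.23 and 3.65 CPM, which did not overlap and gave a log2 fold change of -0.57 (SE 0.12, adjusted p = 3.8e-04 by edgeR). This call was not made by DESeq2 or by the analysis of variance. At 48 h C/EBPδ-inducible wells were at 2.99, 4.31 and 4.13 CPM, all below their 0 h wells, and CDKN2D was lower than at 0 h by 0.52 on the log2 scale (SE 0.14, adjusted p = 0.0032 by edgeR). That call was lost without any of 3 libraries, with values from -0.62 to -0.38. The difference between the lines at 48 h (-0.50, SE 0.15, adjusted p = 0.011 by edgeR) and the interactions at 24 h (-0.58, SE 0.16) and 48 h (-0.54, SE 0.18) did not pass.

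GADD45A, on chromosome 1 at 67685201 to 67688334 (ENSG00000116717), had the largest difference between the lines among the members at 0, 8 and, after CDKN1A, 24 and 48 h. In C/EBPδ-inducible cells the wells were at 74.6, 79.7 and 81.0 CPM at 0 h, 132, 127 and 127 CPM at 8 h, 56.8, 58.6 and 57.4 CPM at 24 h, and 42.0, 41.3 and 44.9 CPM at 48 h. In CTRL cells they were at 11.3, 12.2 and 11.4 CPM at 0 h, 21.4, 20.6 and 23.0 CPM at 8 h, 17.2, 15.3 and 18.2 CPM at 24 h, and 13.4, 16.8 and 15.3 CPM at 48 h. The lines did not overlap at any time, and both were highest at 8 h. After 8 h the C/EBPδ-inducible wells dropped below their 0 h wells, whereas the CTRL wells stayed above theirs.

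The difference between the lines narrowed from 6.72-fold at 0 h (log2 fold change 2.75, SE 0.06, adjusted p = 2.7e-18 by edgeR) to 2.80-fold at 48 h (1.49, SE 0.09, adjusted p = 7.2e-09). At 8 h GADD45A rose by a log2 fold change of 0.72 (SE 0.03) in C/EBPδ-inducible and 0.92 (SE 0.08) in CTRL cells, and these rises did not differ detectably (interaction -0.18, 95% interval -0.35 to -0.01, adjusted p = 0.20 by edgeR). At 24 h it was at -0.45 (SE 0.04) in C/EBPδ-inducible and 0.53 (SE 0.08) in CTRL cells, an interaction of -0.97 (SE 0.09, adjusted p = 2.1e-08 by edgeR). At 48 h the values were -0.90 (SE 0.05) and 0.38 (SE 0.10), an interaction of -1.28 (SE 0.11, adjusted p = 1.5e-07). The CTRL call at 48 h was lost without any of 5 of the 6 libraries, well 3 among them, with values from 0.31 to 0.46, whereas the interaction at 48 h stayed between -1.37 and -1.21 and was called each time.

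GADD45B, on chromosome 19 at 2476122 to 2478259 (ENSG00000099860), followed another course. In C/EBPδ-inducible cells it was at 44.9, 44.9 and 44.8 CPM at 0 h, 34.7, 31.8 and 31.4 CPM at 8 h, 39.6, 38.8 and 38.2 CPM at 24 h, and 27.7, 22.8 and 25.5 CPM at 48 h. In CTRL cells it was at 23.4, 25.03 and 24.0 CPM at 0 h, 26.8, 24.8 and 24.8 CPM at 8 h, 25.1, 24.1 and 23.9 CPM at 24 h, and 13.2, 15.1 and 15.6 CPM at 48 h. C/EBPδ-inducible wells were above CTRL wells of the same time throughout, and the lowest wells of both lines were those at 48 h.

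The difference between the lines in GADD45B was 1.85-fold at 0 h (log2 fold change 0.89, SE 0.05, adjusted p = 2.5e-11 by edgeR), 1.29-fold at 8 h (0.37, SE 0.08), 1.60-fold at 24 h (0.68, SE 0.06) and 1.72-fold at 48 h (0.78, SE 0.10). The call at 8 h was lost without CTRL well 2 or without C/EBPδ-inducible well 1, with values from 0.33 to 0.41. At 8 h GADD45B fell by 0.45 on the log2 scale (SE 0.05) in C/EBPδ-inducible cells, and in CTRL cells the value was 0.11 (SE 0.07). The interaction of -0.53 (SE 0.08, adjusted p = 0.0016 by edgeR) passed, and it was lost without C/EBPδ-inducible well 2, with values from -0.57 to -0.49 over the libraries left out. At 24 h the fall of 0.21 in C/EBPδ-inducible cells (SE 0.05) was called, a call lost without well 3 at 24 h (range -0.23 to -0.19). At 48 h both lines fell, by 0.85 (SE 0.06) in C/EBPδ-inducible and 0.72 (SE 0.08) in CTRL cells, and the interactions at 24 h (-0.20, SE 0.07) and 48 h (-0.13, SE 0.11) did not pass.

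MTAP (chromosome 9, 21802636 to 21937651, ENSG00000099810), CDKN2A (21967752 to 21995301, ENSG00000147889) and CDKN2B (22002903 to 22009305, ENSG00000147883) were near 0 in both lines at all times. MTAP had 0 to 19 counts, with 5 libraries at 0, CDKN2A 0 to 17 counts, with 10 libraries at 0, and CDKN2B 0 to 11 counts, with 6 libraries at 0. A count of 3 corresponds to 0.133 to 0.236 CPM, depending on the library. Over the 3 genes, the summed count was 31 in CTRL well 3 at 8 h and 45 in CTRL well 3 at 48 h, the libraries that stood apart by MMP7 and GALNT5, and 0 to 23 (median 7) in the other 22. Without these wells MTAP, CDKN2A and CDKN2B reached at most 11, 8 and 11 counts. Counts above 0 were found in both lines and at every time point for all 3 genes, and their source was not tested.

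With the filter on low counts, CDKN2A and CDKN2B were not tested and no change of MTAP was called. Without it, CDKN2A was called in 2 of the 13 comparisons and MTAP and CDKN2B in none. CDKN2A had 2, 1 and 17 counts in CTRL wells at 48 h, 1, 1 and 0 in CTRL wells at 0 h and 3, 0 and 0 in C/EBPδ-inducible wells at 48 h. The calls were a log2 fold change of 3.02 (SE 0.90) in CTRL cells at 48 h against 0 h and of -2.63 (SE 0.83) between the lines at 48 h. Both rested on CTRL well 3 at 48 h, without which the values were 0.96 (SE 1.63) and -0.56 (SE 1.48) and neither was called. Without the filter and without CTRL well 3 at 8 h, MTAP was called between the lines at 8 h (3.61, SE 1.05), from 5, 4 and 11 counts in C/EBPδ-inducible wells against 1 and 0 in the other CTRL wells, where the value with all wells was 0.28 (SE 0.55).

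MTAP entered the interactions at 8 h (-1.89 on the log2 scale, SE 1.68) and 48 h (-2.39, SE 1.52), neither was called, and the first ranged from -3.15 to 1.44 when libraries were left out. CDKN2A overlaps the antisense gene CDKN2B-AS1 on the other strand and MTAP shares bases with ENSG00000265194 on the other strand and with ENSG00000264545 and ERVFRD-3 on its own, so that the few reads could also belong to these.

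The low counts were not limited to these members. Around CDKN2A, 28 protein-coding genes lie in the 7.39 Mb between ACER2 and CAAP1, the nearest genes on either side with at least 20 counts in every library (chromosome 9, 19452506 to 26840684). None of the 28 exceeded 19 counts in any library, 15 were at 0 in all 24 libraries, and 23 never exceeded 5. ACER2, a ceramidase gene, had 25 to 63 counts, and CAAP1, a regulator of apoptosis, 201 to 435 counts. The ribosomal protein gene RPS6, beyond ACER2, had 12081 to 25277 counts. Genes with as few counts also lay beyond both ends, with at most 2 counts in a library for SH3GL2 and SAXO1, beyond RPS6, and beyond CAAP1 at most 1 for LRRC19 and TEK, at most 6 for MOB3B and none for EQTN and IFNK.

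Of 29 genes listed as neighbours of CDKN2A in the band, 28 were in the table and 16 of them were at 0 in every library. These were CDKN2A-DT and the 15 interferon genes IFNB1, IFNW1, IFNA1, IFNA2, IFNA4, IFNA5, IFNA6, IFNA7, IFNA8, IFNA10, IFNA13, IFNA14, IFNA16, IFNA17 and IFNA21, which encode antiviral cytokines that most unstimulated cells do not make. KLHL9, an adaptor of a ubiquitin ligase, reached 8 counts, FOCAD 6, MLLT3 and ELAVL2 5 each, DMRTA1 3 and LINC01239 2. HACD4, IFNE, MIR31HG, CDKN2B-AS1, IZUMO3 and TUSC1 had 1 count at most. KLHL9 and FOCAD, which many tissues express, were at 0 in 4 and 2 libraries.

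**Figure D3:**
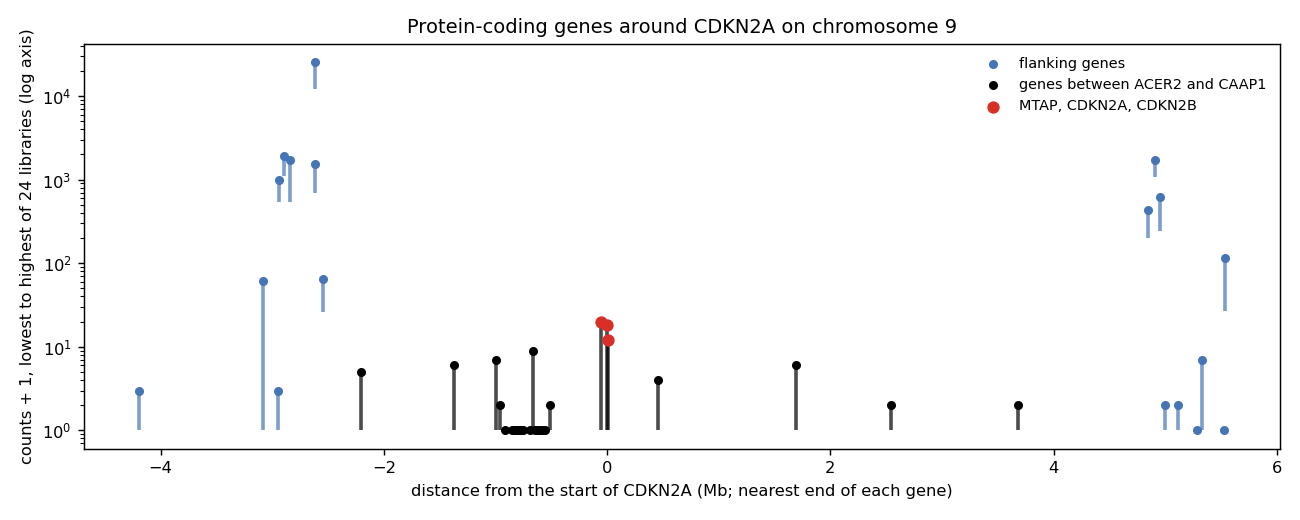
Counts of protein-coding genes around CDKN2A, as the lowest to the highest of 24 libraries (bars, with the point at the highest; counts + 1 on a log axis), by distance from the start of CDKN2A in Mb. The 28 genes between ACER2 and CAAP1 (black, with MTAP, CDKN2A and CDKN2B in red) stay at or below 19 counts, whereas genes outside the stretch (blue) range from 0 to 25277.

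Compared per kilobase of exons, which allows levels of different genes to be set side by side, GADD45B (11.3 RPKM, SD 0.383) and CDKN2C (10.4 RPKM, SD 0.456) led in CTRL cells at 0 h, followed by GADD45A (6.05), CDKN1B (4.81), CDKN2D (3.54), CDKN1A (1.70) and CDKN1C (0.135). GADD45B and CDKN2C overlapped between wells in CTRL cells at 24 h (11.4, SD 0.294, and 10.9 RPKM, SD 0.497), so that their order was not set there. In C/EBPδ-inducible cells at 0 h the order was GADD45A (40.7 RPKM, SD 1.77), GADD45B (20.98), CDKN2C (7.24), CDKN1A (4.73), CDKN1B (4.11), CDKN2D (3.60) and CDKN1C (0.424). By 48 h CDKN1A had reached 10.1 RPKM (SD 0.190) there, above CDKN1B at 4.70 (SD 0.313) and CDKN2C at 3.76 RPKM (SD 0.0220). These orders depend on the merged length of all annotated exons, 9255 bases for CDKN1B against 2996 for CDKN1A and 3018 for CDKN2C. In CPM, CDKN1B was above CDKN1A in C/EBPδ-inducible cells at 48 h (43.5 against 30.4). It was also above CDKN2C in CTRL cells at 0 h (44.5 against 31.4 CPM). Which exons these cells use was not tested. CDKN2B, CDKN2A and MTAP had group means of at most 0.0902 RPKM.

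**Figure D4:**
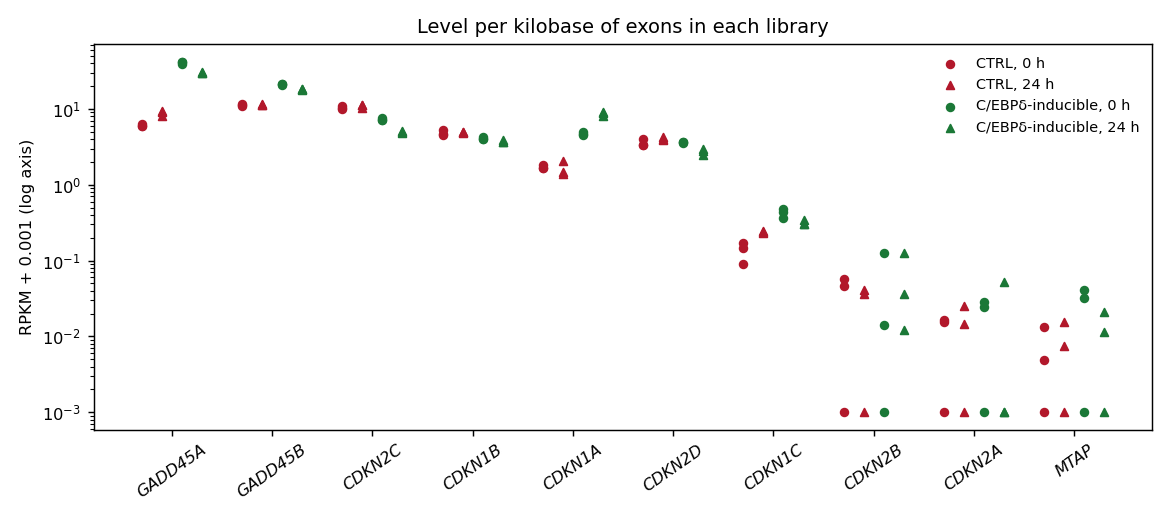
Level of each member per kilobase of merged exons (RPKM + 0.001, log axis) in single libraries of CTRL (red) and C/EBPδ-inducible cells (green) at 0 h (circles) and 24 h (triangles). CDKN2B, CDKN2A and MTAP lie at or near 0, and CDKN1A is the sixth member in CTRL cells at 0 h and the fourth in C/EBPδ-inducible cells.

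Genes that act with these members were taken from lists written for this purpose. The cyclins and CDKs are the partners and targets of these inhibitors. At 24 h C/EBPδ-inducible cells had higher levels of 5 and lower levels of 7 of the 19 genes (median log2 fold change -0.09 against 0.01 for all genes), where 46.9% of all genes tested were called in either direction. CCND2, a D-type cyclin (log2 fold change 4.60, SE 0.14), and its kinase CDK6 (3.74, SE 0.05), a target of the INK4 proteins, were far higher, as they already were at 0 h (4.68 and 3.95), and CCNE1 was at 0.67 (SE 0.05). The phosphatase gene CDC25B (-0.96, SE 0.03), CCND1 (-0.51, SE 0.03) and CCNE2 (-0.48, SE 0.07) were lower. Against 0 h, 1 rose (CCND2, 0.64, SE 0.07) and 6 fell in C/EBPδ-inducible cells at 24 h, among them CDK6 (-0.44, SE 0.03). In CTRL cells 1 fell (WEE1, -0.24, SE 0.04). Of all genes tested, 15.5% were called in C/EBPδ-inducible and 6.06% in CTRL cells at 24 h against 0 h. The changes of MNAT1 (interaction -0.31, SE 0.07) and CDC25B (-0.22, SE 0.05) differed between the lines, where the interaction called 5.84% of all genes. At 48 h 13 of the 19 were lower than at 0 h in each line, with a median of -0.27 in C/EBPδ-inducible and -0.33 in CTRL cells. The interaction at 48 h called 2 of the 19, beside 5.54% of all genes. Of the 11 pocket proteins and E2F factors downstream of these kinases, 7 were lower and 2 higher at 48 h than at 0 h in C/EBPδ-inducible cells and 6 were lower and 2 higher in CTRL cells. At 48 h against 0 h, 38.7% of all genes tested were called in C/EBPδ-inducible and 30.0% in CTRL cells.

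At 24 h 2 of the 11 pocket protein and E2F genes were higher and 3 lower between the lines, against the background of 46.9%. E2F2 was higher in C/EBPδ-inducible cells (1.46, SE 0.05), and RB1, the retinoblastoma gene (-0.64, SE 0.04), and E2F1 (-0.57, SE 0.05) were lower. E2F2 was also the 1 gene of the list whose change from 0 h differed between the lines (0.28, SE 0.07, background 5.84%). Within a line, 1 rose and 2 fell in C/EBPδ-inducible cells (background 15.5%) and 1 fell in CTRL cells (6.06%).

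Of 20 genes that control the transcription or turnover of the inhibitors, C/EBPδ-inducible cells had more of 5 and less of 4 at 24 h, a share near the 46.9% of all genes. FOXO1, a factor that acts on CDKN1B (1.72, SE 0.14), and MYC, which represses inhibitors (0.70, SE 0.03), were higher, and CUL1, a scaffold of the SCF ubiquitin ligase (-0.53, SE 0.03), and EZH2, a silencing methyltransferase (-0.49, SE 0.03), were lower. Against 0 h, 3 fell in C/EBPδ-inducible cells (background 15.5%) and 2 fell in CTRL cells (6.06%), where MYC fell by 0.30 on the log2 scale (SE 0.03). MYC (interaction 0.40, SE 0.04, adjusted p = 1.1e-07 by edgeR) and KLF4, a factor that activates CDKN1A (-0.28, SE 0.07, adjusted p = 0.0075), were the ones whose change differed between the lines (background 5.84%).

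Of 7 tested partners of GADD45 proteins, 4 were higher in C/EBPδ-inducible cells at 24 h (median 0.20, background 46.9%), and the DNA glycosylase TDG (0.43, SE 0.06) and the stress kinase genes MAPK14 (0.28, SE 0.04) and MAP2K7 (0.21, SE 0.04) led. MAPK14 alone of the 7 was called against 0 h in C/EBPδ-inducible cells at 24 h (0.23, SE 0.04, background 15.5%), and it alone passed the interaction (0.27, SE 0.05, background 5.84%). MTAP takes its substrate from polyamine synthesis, and of 16 genes of methionine salvage and polyamines 3 were higher and 5 lower between the lines at 24 h, again beside 46.9% of all genes. SAT1, which breaks down polyamines, was higher in C/EBPδ-inducible cells (1.85, SE 0.04), and AHCY, which clears S-adenosylhomocysteine, was lower (-0.48, SE 0.03). In this list 4 rose and 3 fell in C/EBPδ-inducible cells (background 15.5%) and 1 rose and 3 fell in CTRL cells (6.06%) at 24 h. SAT1 (0.55, SE 0.06), the aminotransferase gene GOT1 (0.39, SE 0.05), AHCY (0.21, SE 0.04) and ADI1 (-0.16, SE 0.04) differed in their change (background 5.84%).

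**Figure D5:**
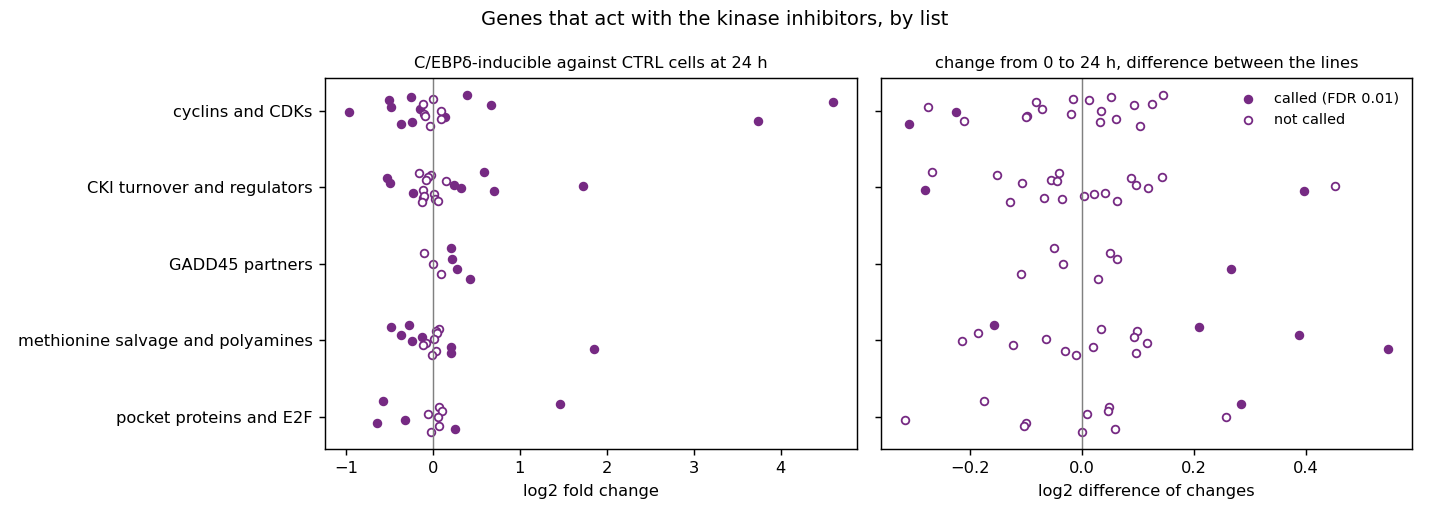
Log2 values of the genes of 5 lists (rows) at 24 h. The left axis is the fold change between C/EBPδ-inducible and CTRL cells and the right axis the difference of the changes from 0 h between the lines. Filled points passed the FDR of 0.01. On the left CCND2 and CDK6 (4.60 and 3.74) lie farthest right, and on the right most points are open.

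Among all protein-coding genes, those whose log2(CPM + 1) was most alike to a member over the 24 libraries are given as a description, since libraries of a group share line and time. For CDKN1A these were SIPA1L2 (Pearson r = 0.990), ACOX2 (0.986) and CACNG6 (0.980). For CDKN2C they were AFAP1 (0.978), GIT1 (0.969) and AKT1 (0.968), for GADD45A SPIRE1 (0.974), BMAL2 (0.971) and ANXA5 (0.971), and for GADD45B RBM28 (0.970), EFHD2 (0.970) and POLR1G (0.968). CDKN1B was most like EIF2AK2 (0.948), WDR26 (0.941) and HELZ (0.933). The values were lower for CDKN1C with BTN3A3 (0.884), DGKA (0.883) and CREB3L3 (0.874) and for CDKN2D with BARX2 (0.832), CKB (0.823) and DRAP1 (0.815).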

How the data were processed

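RNA of 24 wells was depleted of ribosomal RNA and sequenced by the authors in 50-bp reads, which they trimmed, aligned to GRCh38 with Hisat2 and counted on Ensembl 84 genes with HTSeq. The deposited table holds counts, not normalized, for 60675 identifiers, and no column was left out. Of these, 56558 were named with GENCODE release 44. Counts were scaled by TMM and tested with edgeR 4.0.16 in R 4.3.3 (filterByExpr, quasi-likelihood, two-sided, Benjamini-Hochberg over all genes tested, FDR 0.01) in a model of the groups compared, with 4 groups in the interaction. The code was run on simulated counts only for the line comparison and the interaction at 24 h, with the same dispersion for every gene. That run does not cover the wider spread of wells at other times. The smallest two-sided p of an exact permutation test on 3 against 3 libraries is 0.1.

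CPM are TMM-scaled and RPKM divide them by merged exon length. The members and lists were chosen with earlier results of these data known. The genes named were all members, CEBPD, the 9p21 neighbours, up to 3 called genes per direction and list at 24 h, and the 3 most alike genes per member. Some of these genes and 1 of the lists are not reported here. MMP7, GALNT5, ACER2, CAAP1, RPS6 and the low genes beyond the ends of the 9p21 stretch were chosen after their values were seen. Alternatives were DESeq2 1.42.0, an FDR of 0.05, no filter, a minimum of 10 counts per library, all 24 libraries in the model, a replicate block, analysis of variance gene by gene on log2(CPM + 1), each library left out and, chosen after seeing the data, no filter together with CTRL well 3 at 8 or 48 h left out. Whether same-numbered wells belong together was checked by the correlation of their deviations from the group means, and no comparison had every pair above 0.1.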

Additional observations from a re-analysis of the deposited data

Results flagged for a closer look

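For 7 results the change from 0 h differed between the lines by the interaction test of edgeR (C/EBPδ-inducible minus CTRL cells, log2 scale). GADD45B differed by -0.53 at 8 h (adjusted p = 0.0016). At 24 h CDKN1A differed by 0.94 (adjusted p = 1.9e-04), CDKN2C by -0.60 (1.6e-05) and GADD45A by -0.97 (2.1e-08). At 48 h CDKN1A differed by 1.07 (adjusted p = 1.3e-05), CDKN2C by -0.53 (8.9e-04) and GADD45A by -1.28 (1.5e-07). For GADD45A at 24 and 48 h the lines moved in opposite directions, with all C/EBPδ-inducible wells below and all CTRL wells above their 0 h wells.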

How the results depend on the processing

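No alternative reversed a called value. Members called between the lines at 48 h went from 4 to 7 without a filter on low counts (CDKN1B, CDKN2D and CDKN2A gained, the last resting on CTRL well 3), to 5 without both the filter and that well, a setting chosen after seeing the data, and with the replicate block they were 6. In CTRL cells at 8 h the count went from 1 to 2 at an FDR of 0.05 (CDKN1A gained) and in the model of all 24 libraries (CDKN2C gained). In CTRL cells at 48 h it went from 4 to 6 without a filter (CDKN1B and CDKN2A gained), to 3 without both the filter and well 3, and to 2 with DESeq2 and ranged from 2 to 4 when single libraries were left out (2 without any one of the 0 h wells or without well 3 at 48 h, where CDKN1C and GADD45A lost their calls). In the interaction at 8 h it went from 1 to 2 at an FDR of 0.05, without a filter and in the model of all 24 libraries (CDKN2C gained). That count ranged from 0 to 2 when libraries were left out (0 without C/EBPδ-inducible well 2 and 2 without CTRL well 3, both at 8 h). The other counts stayed within 1.5 times, and the causes were not tested. With the replicate block, CDKN1B and CDKN2D at 48 h between the lines were gained and GADD45A in CTRL cells at 48 h was lost. The deviations of same-numbered wells correlated at -0.30 to 0.24, and CTRL wells 3 at 8 and 48 h both stood apart by MMP7 and GALNT5. Whether same-numbered wells shared their handling cannot be told from these values. The calls of CDKN1A, CDKN2C and GADD45A in the interactions at 24 and 48 h held under every alternative run. Low counts limit what the tests can show for CDKN1C, MTAP, CDKN2A and CDKN2B, and the reason for the low counts was not tested.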
